A study of Mus musculus with 2 samples.

Results

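The 9 genes described here encode proteins that make bone matrix or let it mineralize: Sp7, Ibsp, Spp1, Bglap, Alpl, Dmp1, Phex, Smpd3 and Phospho1. They were taken by name, with earlier results of these data known, and all 9 were present among the 43346 Ensembl genes of the tables. RNA of more than 200 nt was taken from limb tissue of healthy embryonic day 13.5 (E13.5) mice of the B6NCrl strain, with male and female embryos pooled, no treatment named, and 10 ng of RNA and ERCC spike-ins per library. The labels give 1 group of 2 libraries, numbered as biological replicates 1 and 2, which came from separate tissue samples under a common donor entry. Which limb pair was dissected is not stated. The libraries held 31927117 (replicate 1) and 43194518 (replicate 2) expected counts. With 1 group there is no contrast of conditions and no p-value; levels are in TPM (counts divided by transcript length and scaled to a common library total) and ± gives the SD of the 2 libraries (n = 2), which may include technical spread.

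Bone forms in the limb mostly by replacing cartilage: chondrocytes enlarge (hypertrophy), and osteoblasts differentiate in the layer around them and later move in with vessels. Runx2 and then the zinc-finger factor Sp7 (osterix) drive that differentiation. Osteoblasts lay down type I collagen with acidic phosphoproteins, and mineral forms where phosphate is released by enzymes and the inhibitor pyrophosphate is removed. Mature osteoblasts make osteocalcin, and osteocytes buried in the matrix make Dmp1 and Phex, which act in phosphate balance.

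Promoters are shown first for Alpl and Spp1, whose upstream and downstream RefSeq starts each lie at or near the start of a transcript entry. That of Bglap is shown because it holds 3 of the 4 motifs searched. The sequences are the 250 bases before each RefSeq start (GRCm38.p6), 5′ to 3′ on the gene's strand, with motif matches in capitals. RefSeq windows matched 7 of the 9 genes and gave 10 windows; Sp7 and Smpd3 are named only. The 4 motifs were a Runx site (ACCACA or TGTGGT), a homeodomain site (CAATTA or TAATTG), a GC box (GGGCGG or CCGCCC) and a TATA box (TATAAA or TTTATA), on both strands.
Alpl upstream start, chr4:137796385-137796634, minus strand: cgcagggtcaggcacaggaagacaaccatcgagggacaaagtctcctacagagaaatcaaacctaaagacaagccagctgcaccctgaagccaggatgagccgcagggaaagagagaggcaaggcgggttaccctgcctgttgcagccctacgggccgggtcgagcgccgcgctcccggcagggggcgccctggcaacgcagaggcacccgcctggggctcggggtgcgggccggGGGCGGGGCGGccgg
Alpl downstream start, chr4:137766476-137766725, minus strand: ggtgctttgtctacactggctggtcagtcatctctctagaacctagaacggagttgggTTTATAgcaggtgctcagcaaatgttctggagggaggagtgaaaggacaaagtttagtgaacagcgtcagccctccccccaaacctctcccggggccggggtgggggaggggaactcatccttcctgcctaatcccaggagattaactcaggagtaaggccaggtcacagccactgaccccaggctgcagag
Spp1 upstream start, chr5:104434861-104435110, plus strand: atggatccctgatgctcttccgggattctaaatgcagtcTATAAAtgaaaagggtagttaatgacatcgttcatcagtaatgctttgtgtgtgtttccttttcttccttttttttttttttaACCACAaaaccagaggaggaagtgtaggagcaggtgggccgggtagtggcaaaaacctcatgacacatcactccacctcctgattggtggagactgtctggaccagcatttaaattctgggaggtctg
Spp1 downstream start, chr5:104435942-104436191, plus strand: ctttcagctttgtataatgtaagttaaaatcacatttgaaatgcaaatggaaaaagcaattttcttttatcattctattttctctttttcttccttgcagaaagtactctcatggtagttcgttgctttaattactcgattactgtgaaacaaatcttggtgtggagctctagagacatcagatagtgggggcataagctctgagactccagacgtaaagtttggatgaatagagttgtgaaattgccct
Bglap, chr3:88384467-88384716, minus strand: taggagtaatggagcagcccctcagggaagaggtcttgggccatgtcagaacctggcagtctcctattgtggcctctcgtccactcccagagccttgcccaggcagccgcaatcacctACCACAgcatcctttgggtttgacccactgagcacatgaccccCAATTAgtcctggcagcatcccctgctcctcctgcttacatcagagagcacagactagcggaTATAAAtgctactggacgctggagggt

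The upstream Alpl window held 2 GC boxes that overlap each other, starting 15 and 10 bases before the start, and no TATA box. The downstream Alpl window held a TATA-box match 192 bases before the start and no GC box. The upstream Spp1 window held a Runx site at 128 bases and a TATA-box match at 211 bases, and its downstream window held none of the 4. The Bglap window held a Runx site 132 bases, a homeodomain site 89 bases and a TATA box 27 bases before the start. Over all 10 windows a Runx site was present in 3, a homeodomain site in 3, a GC box in 2 and a TATA box in 4. Among 32817 RefSeq windows of the same length these were present in 14.0%, 7.17%, 32.7% and 12.4%. A match is a string of letters and shows no binding.

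The tables called 6 of the 9 genes detected, meaning at least 1 TPM in both libraries, where 34.6% of all genes passed the same level. Ibsp, Alpl, Spp1, Smpd3, Sp7 and Phex passed, and Dmp1, Phospho1 and Bglap did not. At 5 TPM or more in both libraries, Ibsp, Alpl and Spp1 passed, beside 25.7% of all genes. Even Ibsp, the highest of them, had only 49.2% of detected genes below it, and Phex had 13.9%. Together the 9 genes took 49.3 TPM in replicate 1 and 56.3 TPM in replicate 2. In whole tissue, a low level from few cells and a low level in each of many cells cannot be told apart. Of the 9 genes, 4 (Ibsp, Alpl, Spp1 and Sp7) are also on the hypertrophic cartilage list. Their levels can therefore not be assigned to osteoblasts alone. In whole tissue, the levels of the other genes of the set, which are not on that list, cannot be assigned to 1 cell type either.

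**Figure D1:**
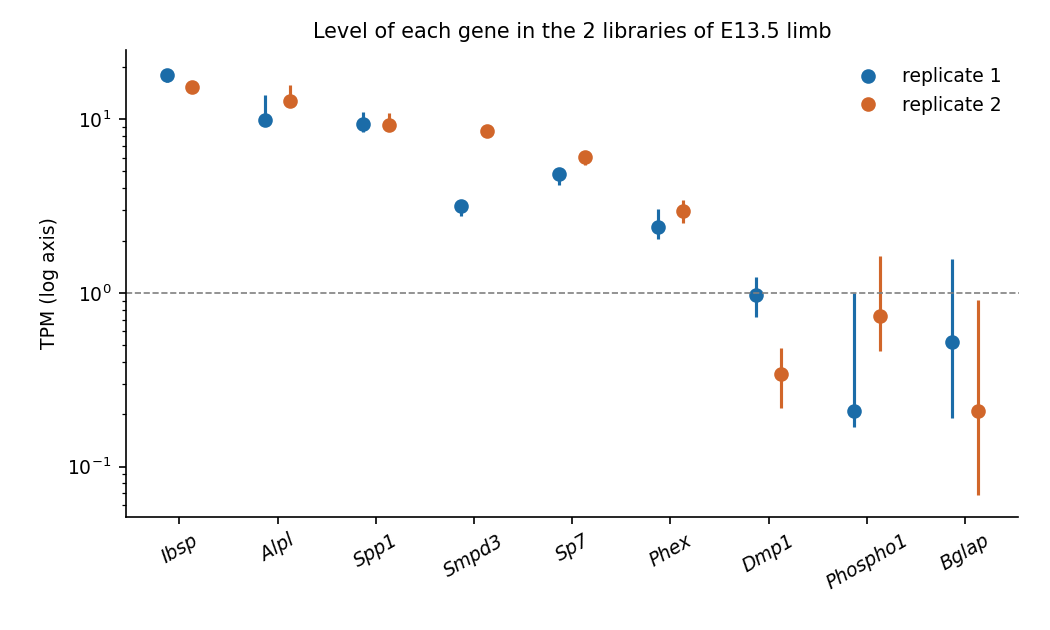
TPM of the 9 genes on a log axis, 1 point per library, with vertical lines for the deposited credibility interval and a dashed line at 1 TPM. Points of 6 genes lie above the line in both libraries; the points of Smpd3 (3.18 and 8.56 TPM) and Dmp1 (0.97 and 0.34 TPM) stand far apart with intervals that do not overlap, and those of Ibsp and Sp7 lie nearer with intervals that just miss each other.

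Sp7 (chr15:102356606-102367182, minus strand), which encodes the factor that commits precursors to the osteoblast fate, was present at 4.81 TPM (281 counts) in replicate 1 and 6.09 TPM (473 counts) in replicate 2, a mean of 5.45 ± 0.905. It stood below Runx2, the factor upstream of it, which had 12.32 and 12.43 TPM, or 2.26 times the level of Sp7 on the log2(TPM + 0.1) scale used for every ratio between genes here. The listed regulators of osteoblast differentiation were present as well, though whole tissue does not show which cells expressed them. Among them, 2 (Runx2 and Mef2c) are also on the hypertrophic cartilage list. All 12 listed regulators were detected, where 34.6% of all genes were. They ran from 1.76 TPM for the homeobox gene Dlx6 to 105.8 TPM for Atf4, which drives amino acid supply to matrix synthesis. Cbfb, the partner subunit of Runx proteins, averaged 82.5 TPM and the WNT effector Lef1 43.5 TPM.

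Among the SIBLING phosphoproteins, a family of acidic matrix proteins encoded side by side on chromosome 5, Ibsp and Spp1 carried nearly all the signal. Ibsp (bone sialoprotein, a nucleator of mineral; chr5:104299171-104311469, plus strand) was the highest of the 9 genes, with 17.97 TPM (737 counts) and 15.38 TPM (838 counts), a mean of 16.7 ± 1.83. Spp1 (osteopontin, a cell-binding protein that also restrains crystal growth; chr5:104435118-104441050, plus strand) had 9.37 TPM (257 counts) and 9.26 TPM (337 counts). The 2 libraries lay close together for Spp1 and differed by more for Ibsp, which was higher in replicate 1.

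Dmp1 (chr5:104202613-104214102, plus strand), a phosphoprotein typical of osteocytes, was far lower, with 0.97 TPM (54 counts) in replicate 1 and 0.34 TPM (25 counts) in replicate 2. The other 2 family genes were at the edge of detection. Mepe had 0 and 1 counts and Dspp, known from dentin, 0 and 3 counts, against a detection limit of 3 counts per library (0.0940 and 0.0695 CPM, the count scaled to library size). Ibsp thus exceeded Dmp1 24.4-fold and Spp1 exceeded Dmp1 13.7-fold, both beyond the spread of genes of like abundance. With the low and unequal counts of Dmp1 these folds depend on the library: the fold of Spp1 over Dmp1 was 8.85 in replicate 1 and 21.3 in replicate 2, and that of Ibsp over Dmp1 16.9 and 35.2. The same tissue held the collagen scaffold at much higher levels. Col1a1, the main chain of bone collagen, averaged 904 TPM, or 53.9 times Ibsp, and Sparc, a collagen-binding glycoprotein, averaged 1229 TPM, or 131 times Spp1. Col1a1 and Sparc are also made by many connective tissue cells.

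Osteocalcin, the vitamin K-dependent protein of mature osteoblasts, was barely detected. Bglap (chr3:88383501-88384464, minus strand) had 3 counts (0.52 TPM) in replicate 1 and 2 counts (0.21 TPM) in replicate 2, both at or under the detection limit. Its neighbouring copies Bglap2 and Bglap3 lie within the same stretch of chromosome 3. Their coding sequences are shown because reads over the shared stretches cannot be assigned to 1 copy. They come from GENCODE M21 transcripts, and capitals mark bases that differ from Bglap.
Bglap coding sequence, exons within chr3:88383638-88384415: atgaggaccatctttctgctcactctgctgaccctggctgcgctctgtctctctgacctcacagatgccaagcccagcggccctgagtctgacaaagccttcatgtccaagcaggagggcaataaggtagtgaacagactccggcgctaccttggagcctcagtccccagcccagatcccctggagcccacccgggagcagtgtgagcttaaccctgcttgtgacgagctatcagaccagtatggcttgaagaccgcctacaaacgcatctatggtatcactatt
Bglap2 coding sequence, exons within chr3:88377873-88378650: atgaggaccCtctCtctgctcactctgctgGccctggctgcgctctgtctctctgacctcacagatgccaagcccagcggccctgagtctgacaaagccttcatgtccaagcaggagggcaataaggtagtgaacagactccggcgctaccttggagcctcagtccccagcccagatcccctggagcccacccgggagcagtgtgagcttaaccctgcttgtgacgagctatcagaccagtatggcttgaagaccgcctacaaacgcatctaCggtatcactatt
Bglap3 coding sequence, exons within chr3:88368759-88369536: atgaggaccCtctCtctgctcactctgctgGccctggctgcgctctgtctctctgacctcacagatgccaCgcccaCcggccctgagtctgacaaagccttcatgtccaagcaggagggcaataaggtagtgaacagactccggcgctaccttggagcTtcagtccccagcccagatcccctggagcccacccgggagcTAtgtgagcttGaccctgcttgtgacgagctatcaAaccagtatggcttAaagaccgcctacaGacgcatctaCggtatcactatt

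Each is 285 bases long. Bglap2 differs from Bglap at 4 bases (98.6% identity) and Bglap3 at 13 bases (95.4%). The longest run that the Bglap transcript shares without a difference is 241 bases with Bglap2 and 81 bases with Bglap3. Bglap2 had 1 count in replicate 1 and 0 in replicate 2, and Bglap3 had 10 counts and 1 count. None of the 3 copies reached 1 TPM in either library as the tables assign the reads. The gene counts of all 3 were whole numbers, so they show no read divided between copies. Mgp, a related vitamin K-dependent inhibitor of calcification in cartilage, stood at 153 and 156 TPM, and both the carboxylase gene Ggcx (31.75 and 37.34 TPM) and Vkorc1, whose enzyme recycles vitamin K (132 and 145 TPM), were detected.

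The phosphate enzymes differed from each other in level. Alpl (tissue-nonspecific alkaline phosphatase, which cleaves pyrophosphate; chr4:137741733-137796384, minus strand) had 9.92 TPM (497 counts) and 12.76 TPM (852 counts), a mean of 11.3 ± 2.01. It was higher in replicate 2. Phospho1 (chr11:95824499-95832140, plus strand), which frees phosphate from phosphocholine inside matrix vesicles, had only 7.86 and 10.06 counts. These are 0.246 and 0.233 CPM, and its TPM of 0.21 and 0.74 differ because the counts went to transcripts of different length. Alpl exceeded Phospho1 22.2-fold (32.3-fold and 15.3-fold in the separate libraries). Smpd3 (neutral sphingomyelinase 2, which acts on membrane lipids and is needed for normal mineralization; chr8:106252548-106337988, minus strand) had 3.18 TPM (334 counts) in replicate 1 and 8.56 TPM (1195 counts) in replicate 2, a mean of 5.87 ± 3.80. Its libraries were further apart than those of any other detected gene of the 9.

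Around these enzymes, 5 of the 6 other genes of phosphate and pyrophosphate handling were detected (34.6% of all genes). Enpp1, which makes pyrophosphate outside the cell, had 4.09 and 4.97 TPM, and Ank, which brings it out of the cell, 5.89 and 5.34 TPM. Alpl stood 2.46 times above Enpp1 and 1.99 times above Ank. The phosphate importers Slc20a1 (28.05 and 29.53 TPM) and Slc20a2 (29.16 and 30.28 TPM) were higher than Alpl in both libraries, as was the anion exchanger Slc4a2 (30.01 and 32.61 TPM). Abcc6, a transporter tied to pyrophosphate release, was at 0.41 and 0.16 TPM. Its counts were 17 and 21, a log2 ratio of -0.12 between the libraries after scaling, so the TPM gap does not follow the counts.

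Phex (chrX:157162075-157415312, minus strand), a membrane peptidase whose loss causes phosphate wasting, was low but detected, at 2.38 TPM (225 counts) and 2.94 TPM (375 counts), a mean of 2.66 ± 0.396. Of the 6 other genes of the phosphate hormone axis, 3 were detected (34.6% of all genes). The receptor Fgfr1 averaged 76.8 TPM, Fam20c, the kinase of SIBLING proteins, had 3.70 and 3.47 TPM, and Galnt3, which protects the hormone FGF23 from cleavage, had 4.27 and 1.88 TPM. Fgf23 itself had 5 and 2 counts, and its co-receptor Kl 18 and 20 counts.

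**Figure D2:**
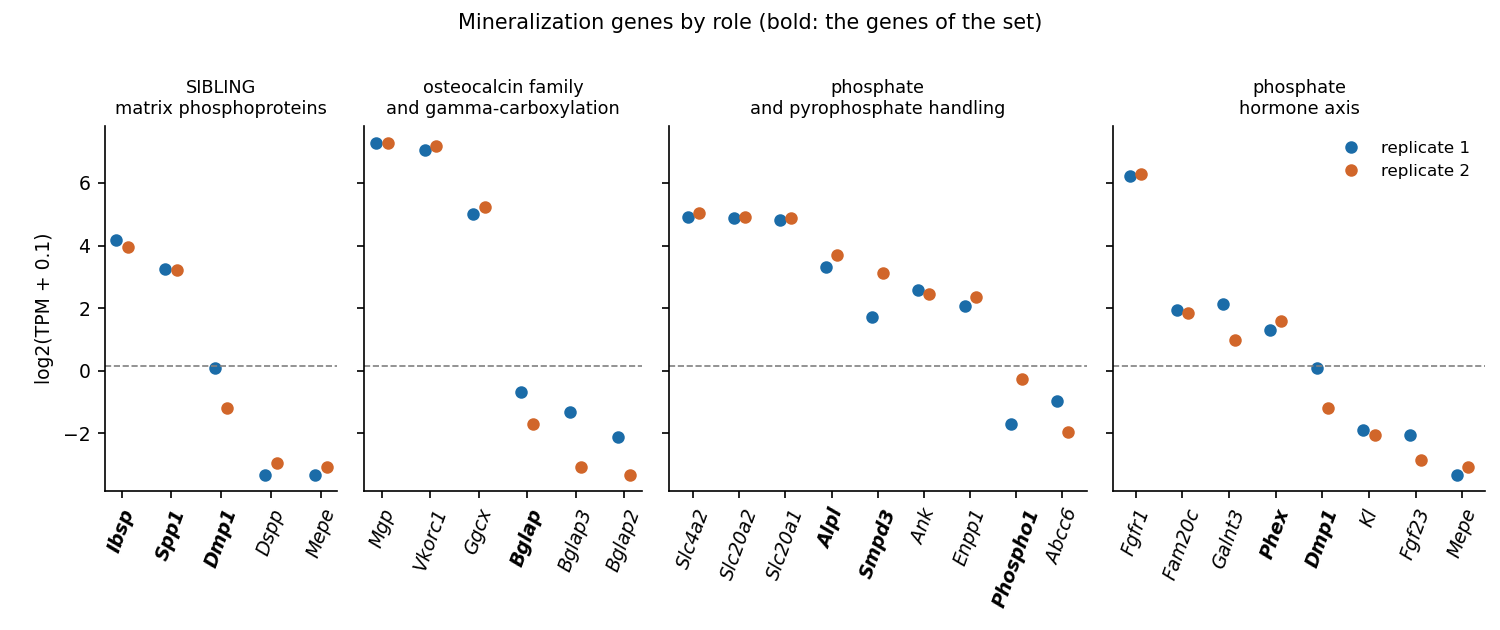
log2(TPM + 0.1) of the genes in 4 role lists, 1 point per library, with names of the 9 genes in bold and a dashed line at 1 TPM. Ibsp and Spp1 lie above the line and Mepe and Dspp near the bottom; Alpl lies between the phosphate importers and Enpp1, and Bglap and its copies lie below the line.

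By mean TPM the order was Ibsp, Alpl, Spp1, Smpd3, Sp7, Phex, Dmp1, Phospho1, Bglap. A step was called larger than the spread if its sign agreed in the libraries and its mean exceeded 2 combined SDs, taken from 500 genes of like abundance. Of 8 neighbouring pairs 3 passed: Ibsp over Alpl (1.47-fold), Spp1 over Smpd3 (1.77-fold) and Sp7 over Phex (2.01-fold). The step from Spp1 to Smpd3 was 2.89-fold in replicate 1 and 1.08-fold in replicate 2. The borrowed spread is too narrow for Smpd3, whose ratio between the libraries was 8.70 times the SD of genes of like count. Passes that involve Smpd3, here and over all pairs, may therefore be overstated. Alpl and Spp1 differed by 0.27 on the log2 scale, within the spread, though in replicate 2 alone the difference was beyond it (0.46). Smpd3 and Sp7 changed places, Sp7 being higher in replicate 1 and Smpd3 in replicate 2. Phex stood 4.00-fold above Dmp1 (2.32-fold and 6.91-fold in the separate libraries), which was also within the spread, since Dmp1 lies where genes vary widely. Over all 36 pairs 30 passed, and the other 6 were Alpl with Spp1, Smpd3 with Sp7, Phex with Dmp1, and the 3 pairs among Dmp1, Phospho1 and Bglap. The step from Ibsp to Alpl fell within the spread with posterior mean TPM (a log2 difference of 0.35), with counts not divided by length (0.27) and in replicate 2 alone (0.27). Without division by length Smpd3 and Sp7 also stood above Spp1, so that the Spp1 to Smpd3 step turned. In replicate 2 alone the step from Spp1 to Smpd3 (0.11) was within it as well, and in replicate 1 alone Sp7 over Smpd3 (0.58) and Smpd3 over Phex (0.40) were too.

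The libraries were compared by the log2 ratio of replicate 2 over replicate 1 after TMM scaling, for the 7 genes averaging 10 counts or more. Smpd3 and Dmp1 were past 1.5-fold, where 7.40% of 17982 genes were, 3.36% higher in replicate 2 and 4.04% higher in replicate 1. Smpd3 was 2.65-fold higher in replicate 2 (95% counting interval 2.35 to 3.0), a log2 ratio of 1.41, or 8.70 times the SD of genes of like count. Only 0.737% of genes with 100 to 1000 counts were past 1.5-fold in that direction. Dmp1 went the other way, 2.87-fold higher in replicate 1, a log2 ratio of -1.52 and 2.60 times the SD. At its depth of 10 to 100 counts, 14.2% of genes were past 1.5-fold in that direction, a far larger share than at the depth of Smpd3. Intervals cover counting error only.

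The 5 other genes stayed under 1.5-fold. Alpl (0.35), Sp7 (0.32) and Phex (0.30) were higher in replicate 2, Ibsp (-0.25) was higher in replicate 1, and Spp1 (-0.04) was nearly level. Of these, Alpl was above 2 SDs of genes of like count (an SD of 0.151) and the others were not. With Smpd3 and Dmp1 this makes 3 of 7 genes beyond 2 SDs, where 3.56% of all genes tested were (the same 3 of 7, beside 6.41%, with a robust SD). The median over the 7 genes was 0.30, beside 0.00 over all genes tested. Phospho1 (-0.07) had too few counts for the comparison, and Bglap was at the detection limit.

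**Figure D3:**
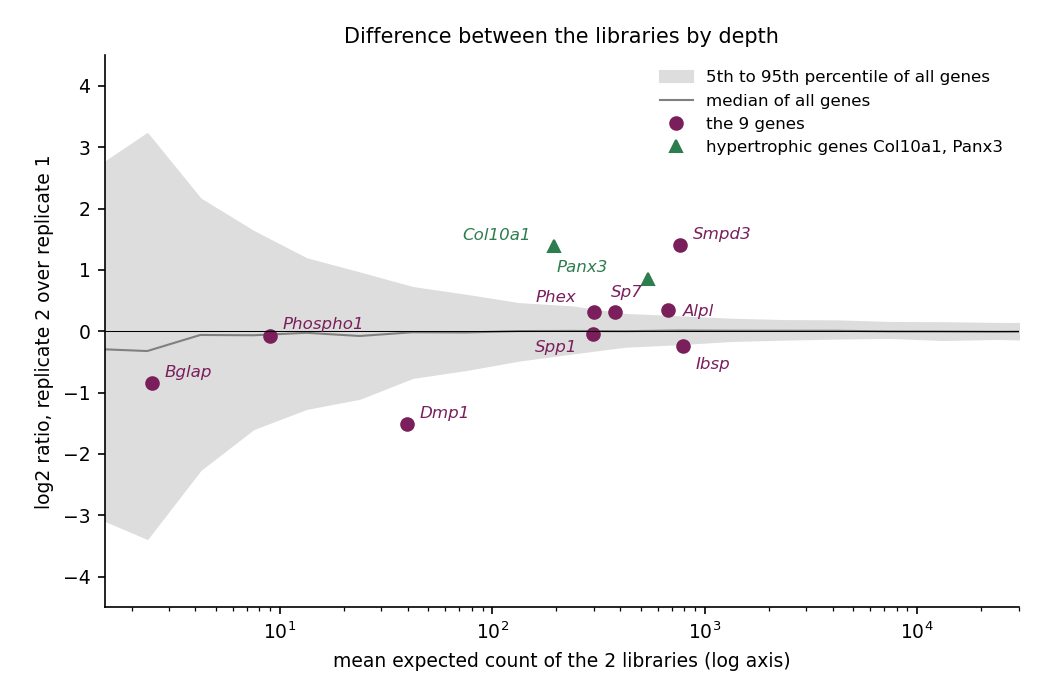
log2 ratio of replicate 2 over replicate 1 against mean expected count (log axis) for the 9 genes (circles) and the hypertrophic cartilage genes Col10a1 and Panx3 (triangles), over the 5th to 95th percentile (band) and median (line) of all genes. Smpd3 at 1.41, Col10a1 at 1.38 and Panx3 at 0.86 lie well above the band, and Dmp1 at -1.52 lies below it. Alpl (0.35) lies somewhat above the band, Ibsp (-0.25) slightly below it and Sp7 (0.32) at its upper edge. Spp1, Phex, Phospho1 and Bglap lie inside it. The other hypertrophic cartilage genes outside the set are not drawn.

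Some genes outside the set also differed between the libraries. Of the 7 hypertrophic cartilage genes outside the set with enough counts, 2 were past 1.5-fold, both higher in replicate 2. Over all genes tested, 3.36% were past it in that direction. Col10a1, the collagen that defines hypertrophic cartilage, had 1.36 and 3.61 TPM (86 and 303 counts, a log2 ratio of 1.38), and the channel gene Panx3 had 6.21 and 11.44 TPM (0.86). The remaining 5 were Ihh (0.02), Pth1r (0.07), Mef2c (0.13), Runx2 (0.11) and Vegfa (-0.10), and the summed level of the 8 listed genes was 145 and 162 TPM. Mmp13, a collagenase of late hypertrophic cells, had 6 and 2 counts. Of 14 chondrocyte genes 1 was past 1.5-fold and the median ratio was 0.11. Of 14 collagen-matrix genes 1 was past it, and the median was 0.15. Over all genes tested, 7.40% were past 1.5-fold in either direction.

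Of the liver genes with enough counts, 8 of 8 were past 1.5-fold and higher in replicate 1, where 4.04% of all genes tested were. Their median log2 ratio was -2.74. The summed level over the 10 listed was 73.6 TPM in replicate 1 against 19.8 TPM in replicate 2. For osteocytes, 3 of the 6 genes outside the set were detected (34.6% of all genes), but these were Pdpn (52.5 and 52.0 TPM), Cd44 and Dkk1, which other cells also express. They make up nearly all of the list's summed 72.4 and 75.8 TPM. The defining genes were near 0, Sost with 13 and 17 counts, Fgf23 with 5 and 2 and Mepe with 0 and 1. The part of the dissection or of these cell types in the ratios of Smpd3 and Dmp1 was not tested.

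Overlapping genes bear on how reads were assigned. In GENCODE M21, 4 of the 9 genes overlap another gene (Spp1, Phex, Smpd3, Phospho1), and whether counting used strand is not given in the sources used here. The last 247 bases of Smpd3 overlap Prmt7 on the opposite strand, and its whole span lies in the lincRNA gene Gm26786 on the same strand. Prmt7 (2461 and 3521 counts, a log2 ratio of 0.09) and Gm26786 (132 and 188 counts, 0.07) had smaller ratios than Smpd3. Gm10629, inside Smpd3 on the opposite strand, had 3 counts in each library. The part of shared reads in the ratio of Smpd3 was not tested. Phospho1 lies inside the span of Zfp652 on the same strand (2425 and 3205 counts) and overlaps Abi3 on the opposite strand over 2067 bases (140 and 226 counts, a log2 ratio of 0.26). Its own 7.86 and 10.06 counts are few against both. Counts were whole for 7 of the 9 genes, to within 0.005. The 2 with fractions, which the estimates give where reads match several entries, were Smpd3 and Phospho1.

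The 9 genes have 27 annotated transcripts in the tables, of which 17 received counts in at least 1 library. Ibsp, Smpd3, Sp7 and Dmp1 have a single transcript. Among the other 5, the leading transcript was the same in both libraries for Alpl, Spp1 and Phex and differed for Phospho1 and Bglap, the 2 with a mean under 10 counts. Over all 11495 genes with several transcripts and 10 counts or more, it was the same for 88.8%.

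For Alpl, transcript Alpl-201, which begins at the upstream start printed above, took 99.05% and 99.44% of the gene's TPM. Alpl-205 begins at the downstream start and had 0 counts in both libraries, with upper credibility bounds of 0.425 and 0.319 TPM. The posterior means spread more widely and gave Alpl-201 81.9% and 88.5%. For Spp1, Spp1-201 took 92.43% and 95.08%, and Spp1-204, which begins at the downstream start, took 2.95% and 4.92% (8.11 and 17.74 counts). Posterior means gave Spp1-201 73.4% and 82.5%. Spp1-202, Spp1-203 and Spp1-207, which hold an exon of 3 bases that Spp1-201 lacks, had 0 counts. By these estimates, entries that begin at the upstream start held most of each gene's TPM in both libraries. Alpl-205 has only 6 exons, against 12 in Alpl-201, so a longer RNA from the downstream start has no entry of its own. Reads over the first exons were not examined, so use of the starts was not tested.

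For Phex, the leading entry was not the full-length mRNA. Phex-202, at 53.91% and 47.03%, is a single block of 3588 bases (chrX:157162075-157165662) identical to the last exon of Phex-201, with 100 coding bases. Phex-201, the 22-exon transcript, took 41.69% and 45.68%, and in replicate 2 its share was nearly that of Phex-202. Any read inside that block matches both entries, so the division between them is a model estimate. Phospho1 and Bglap switched between libraries. The counts of Phospho1 went to Phospho1-201 in replicate 1 and to Phospho1-202 in replicate 2. Those of Bglap went mostly to the retained-intron entry Bglap-202 (73.02%) in replicate 1 and to Bglap-201 in replicate 2, on a total of 3 and 2 counts.

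**Figure D4:**
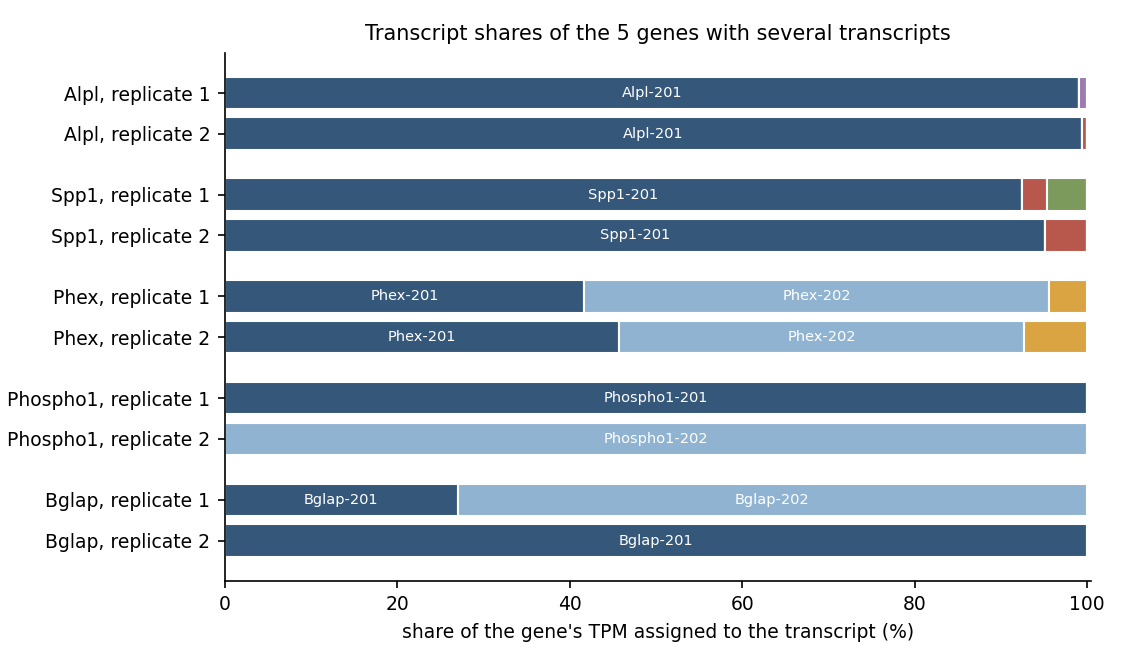
Share of each gene's TPM (%) assigned to its transcripts in each library, for the 5 genes with several transcripts. Alpl-201 and Spp1-201 fill over 90% of their bars; Phex divides between Phex-201 and Phex-202, and the leading transcripts of Phospho1 and Bglap differ between the libraries.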

How the data were processed

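Total RNA-seq of E13.5 mouse limb gave 2 libraries in 1 group. Per the labels the genome build was mm10, and a deposited text file names GENCODE M4 as annotation. Not given in the sources used here are the aligner, the counting tool, any version and whether strand was used. The authors deposited expected counts, which are model estimates that divide shared reads, with TPM and FPKM computed from them over an effective length. Transcript shares (IsoPct) are in percent of the gene's TPM, and posterior means and credibility bounds, kept here as a score, are further deposited columns per the file headers.

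Symbols matched 42462 of 43346 Ensembl genes. GENCODE M21, a later release for the same assembly, gave positions and transcript names, and 25 of the 27 transcript lengths were equal in it. Expected counts were rounded for edgeR 4.0.16 (TMM) and DESeq2 1.42.0 (size factors), in R 4.3.3. Everything else used Python 3.11.15. Levels between genes used log2(TPM + 0.1), and ratios between libraries used TMM-scaled expected counts plus 0.5. The SD of genes of like abundance is a root mean square over the 500 nearest genes. Depth gives a limit of 3 counts per library, for counting error only. No statistical test between conditions could be made with 1 group.

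The 9 genes and the 18 gene lists were chosen with earlier results of these data known. All 9 genes and the members of 4 role lists are named by rule. Of the other lists the 3 highest and the lowest were to be named, but most are given as counts, and Sost, Lef1, Col10a1, Panx3, Mmp13 and other listed genes were named after their values were seen. The rule gave 10 genes and listed 9, which are those used.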

Additional observations from a re-analysis of the deposited data

How the results depend on the processing

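At a minimum of 5 TPM in both libraries, 3 of the 9 genes passed in place of 6 (25.7% of all genes in place of 34.6%). The count was 6 with a minimum of 0.5 TPM, posterior mean TPM, the lower credibility bound, FPKM, or either replicate left out. Neighbours in the order that differed beyond the spread numbered 3 with 1 TPM added, counts not divided by length, posterior mean TPM and 250 or 1000 genes of like abundance, though the pairs were not always the same ones. They numbered 2 without replicate 1 and 2 without replicate 2. A robust spread (the median absolute difference in place of the root mean square), chosen after seeing the data, gave 4, the fourth being Phex over Dmp1, and left 3 genes above 2 SDs between libraries, where 6.41% of all genes tested were (3.56% with the root mean square). Genes past 1.5-fold between libraries numbered 2 under DESeq2 size factors, deposited TPM, the ERCC total, 2 counts added, a subtracted length line, a 2-fold limit and posterior mean TPM, the last also added after seeing the data. They numbered 3 with no filter on counts, the added gene being Bglap, on only 3 and 2 counts. The shares of all genes past a 2-fold limit, or without the filter, are not given here. The log2 ratio of Phospho1 was 1.44 with deposited TPM and -0.07 with counts, and the effective length in the tables was 1811 nt in replicate 1 and 491 nt in replicate 2. Scalings shifted the median of all genes by at most 0.03. With posterior means the leading transcript was likewise the same in both libraries for 3 of the 5 genes with several transcripts, and the mean share of Spp1-201 was 78.0% in place of 93.8%. No paired analysis was possible because the 2 libraries form a single group. Depth limits Bglap, Phospho1 and Dmp1 most, and with 2 libraries no gene's own SD is precise.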

Other observations

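Of 11 listed genes of osteoclasts, the cells that resorb mineral, 5 were detected, where 34.6% of all genes were. Whole tissue does not show whether osteoclasts or other cells expressed these 5. Nfatc1, a factor also found in other cells, averaged 37.3 TPM, the cathepsin gene Ctsk 29.5 TPM, and the phosphatase gene Acp5 had 5.42 and 6.57 TPM. Mmp9 (4.66 and 5.92 TPM) and the integrin gene Itgb3 (1.64 and 1.93 TPM) were the other 2 detected. The 6 that were not detected were Tnfrsf11a, at 0.72 TPM in the mean, the fusion genes Ocstamp (2 and 4 counts) and Dcstamp (2 and 5 counts), Calcr (7 counts in each library), Oscar (4 and 3 counts) and the proton pump gene Atp6v0d2 (0 and 14 counts). Macrophage genes were all detected, 10 of 10, led by C1qb at 33.5 TPM. Tnfsf11, which encodes the osteoclast-inducing ligand RANKL, had 0.47 TPM in the mean, and Tnfrsf11b, which encodes its decoy receptor, had 2.25 TPM.

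Tooth matrix genes were near 0 except for 1. Ambn, which encodes the enamel protein ameloblastin, was at 2.03 and 2.58 TPM (74 and 125 counts), above Dmp1 in both libraries, while the other 5 of the list were below 1 TPM and Mmp20 had 0 counts in both. Of 7 germ cell and pluripotency genes 1 was detected, where 34.6% of all genes were. Epithelium (8 of 8), skeletal muscle (10 of 10) and endothelium (10 of 10) were fully represented, with median log2 ratios between the libraries of 0.15, 0.04 and 0.02. Of 14 genes for signals to the osteoblast lineage 13 were detected, with a median ratio of 0.06.

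Galnt3 had 169 and 177 counts, a log2 ratio of -0.36 between the libraries after scaling, and 4.27 and 1.88 TPM.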
